A study of Mus musculus with 198 samples.

Results

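Protocadherins are cadherin-like adhesion proteins of the cell surface, and the deposited gene table of mouse cortex held 37 gene entries whose symbol starts with Pcdh, of 34193 gene entries in all. They were chosen by symbol, with earlier results of these data known. Of these, 25 were clustered genes (2 alpha, 22 beta and 1 gamma) and 12 were single genes. The study compared DNA methylation in mice heterozygous for a knockout of Dnmt3a (labelled Heterozygous KO, called hKO here) and in wild-type (WT) mice. The 8 libraries used here were whole-genome bisulfite libraries of cortex from 8-week-old C57BL/6J mice, out of 198 samples in the series. There were 4 hKO animals (males 694 and 046-2, females 651-2 and 047-1) and 4 WT animals (males 695 and 046-1, females 651-3 and 047-2). Per the labels' protocols tissue came from littermates, and the deleted part of Dnmt3a and the way it was deleted are not given in the sources used here.

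Single protocadherins, such as the delta-1 and delta-2 genes, lie outside the arrays of clustered genes and each has its own promoter. Clustered protocadherins lie in 3 neighbouring arrays, in which each neuron uses a chosen few variable exons; alpha and gamma variable exons are joined to constant exons that their cluster shares, while beta genes are short and have none. The combination on the cell surface lets a neuron tell its own branches from those of other neurons, and methylation of variable-exon promoters, the insulator protein CTCF and cohesin take part in the choice. DNMT3A places methyl groups on cytosine, and after birth it is the main enzyme that methylates CA dinucleotides in neurons. Methylation of CA (mCA) is low in most tissues and high in brain, while methylation of CG (mCG) is high in all tissues.

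Each value is the percentage of CA or CG cytosines of a gene that were read as methylated, computed from the fractions that the authors deposited. Labelled coverage was 6.4 to 7.8 genome equivalents a library, and the number of cytosines behind a gene's value is unknown, so no counting interval is given. Over all 21302 genes with mCA in every library, the median gene lay between 1.01% and 1.32% in hKO libraries and between 1.91% and 2.43% in WT libraries, with no overlap. Animals 651-2 and 651-3 had the highest median of their genotype. Cortex is a mixture of cells, and a change in the share of a cell type and a change of methylation per cell cannot be told apart. Methylation offers no marker expression against which the label of cortex could be set. Values of a gene are given for animals 694, 046-2, 651-2 and 047-1 among hKO mice and 695, 046-1, 651-3 and 047-2 among WT mice, in that order. Tests are from limma on the percentage scale, adjusted by Benjamini-Hochberg over all genes, with a threshold of 0.05.

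The promoters of 4 single genes are shown because their genes mark the range described here. Pcdh8 had the lowest mCG among single genes, Pcdh17 kept the smallest share of WT mCA, Pcdh20 combined high mCA with few promoter CG sites, and Pcdh19 is X-linked. Each sequence is the window of 250 bases before to 50 bases after the gene's start in RefSeq (GRCm38.p6), written 5′ to 3′ with CG dinucleotides, read on both strands, in capitals. The Pcdh8 window is chr14:79771263-79771562 on the minus strand, that of Pcdh17 chr14:84443313-84443612 on the plus strand, that of Pcdh20 chr14:88471347-88471646 on the minus strand and that of Pcdh19 chrX:133688944-133689243 on the minus strand.
Pcdh8: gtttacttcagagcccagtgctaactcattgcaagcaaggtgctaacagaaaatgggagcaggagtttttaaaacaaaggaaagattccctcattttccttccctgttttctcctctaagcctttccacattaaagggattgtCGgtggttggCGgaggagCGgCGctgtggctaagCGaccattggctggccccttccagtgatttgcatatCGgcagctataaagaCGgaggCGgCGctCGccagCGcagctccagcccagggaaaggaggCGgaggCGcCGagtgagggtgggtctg
Pcdh17: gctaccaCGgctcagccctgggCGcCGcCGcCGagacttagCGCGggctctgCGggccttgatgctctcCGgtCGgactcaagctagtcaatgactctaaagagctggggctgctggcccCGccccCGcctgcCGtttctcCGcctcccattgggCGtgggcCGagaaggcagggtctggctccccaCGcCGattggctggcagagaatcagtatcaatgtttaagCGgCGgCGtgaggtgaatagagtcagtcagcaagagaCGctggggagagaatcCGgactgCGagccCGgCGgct
Pcdh20: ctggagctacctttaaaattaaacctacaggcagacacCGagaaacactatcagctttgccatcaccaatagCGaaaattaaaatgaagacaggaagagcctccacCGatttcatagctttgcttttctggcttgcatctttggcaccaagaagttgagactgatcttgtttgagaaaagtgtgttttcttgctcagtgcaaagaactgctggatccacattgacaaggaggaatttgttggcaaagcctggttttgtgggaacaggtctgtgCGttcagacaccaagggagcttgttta
Pcdh19: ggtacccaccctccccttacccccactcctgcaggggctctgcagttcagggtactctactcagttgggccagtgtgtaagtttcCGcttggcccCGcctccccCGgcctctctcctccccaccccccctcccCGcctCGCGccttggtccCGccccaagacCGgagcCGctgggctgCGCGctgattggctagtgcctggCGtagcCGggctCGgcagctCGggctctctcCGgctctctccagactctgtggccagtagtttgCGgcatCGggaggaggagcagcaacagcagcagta
They hold 14 CG sites for Pcdh8, 26 for Pcdh17, 4 for Pcdh20 and 18 for Pcdh19, against a median of 7 over 27025 promoters, of which 94.2% hold at least 1. At least as many sites were found in 36.9% of promoters for Pcdh8, 16.8% for Pcdh17, 68.1% for Pcdh20 and 30.1% for Pcdh19. The other matched promoters held 24 (Pcdh10), 23 (Pcdh18), 18 (Pcdh9), 11 (Pcdh7) and 8 (Pcdh15). Methylation was deposited per gene, so no level is known for these windows, and the counts describe sequence alone.

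The first question is which protocadherins could be measured at all. All 12 single genes had mCA and mCG in all 8 libraries, and none was at 0 in any. Of the 25 clustered genes, 6 had no mCA value in any library (Pcdha3, Pcdhb1, Pcdhb2, Pcdhb8, Pcdhb10 and Pcdhb15) and none had values in some libraries only, which left Pcdha1, 17 beta genes and Pcdhga11. Of all gene entries, 62.3% had mCA in every library. In mCG, Pcdhb12 and Pcdhb20 were missing as well, which left 17 clustered genes.

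Among protocadherins, zeros were found in beta genes alone. In mCA, 15 of the 17 measured beta genes had at least 1 value of exactly 0, against 7.35% of all measured genes. Pcdha1, Pcdhga11, Pcdhb18 and Pcdhb19 were the 4 clustered genes with none. Zeros made up 27 of 76 clustered values in hKO libraries and 25 of 76 in WT libraries. By animal the number of clustered genes at 0 was 7, 6, 5 and 9 in hKO and 5, 8, 4 and 8 in WT, so the genotypes overlapped. Pcdhb12 and Pcdhb22 were listed at 0 in all hKO libraries and Pcdhb9 in all WT libraries. In mCG the protocadherins held 1 zero, for Pcdhb9 in hKO animal 047-1.

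The main comparison asks how much mCA each protocadherin gene carried in hKO and WT cortex. Among single genes 11 of 12 passed as lower in hKO and none as higher, where 72.1% of all genes passed as lower and 0.0329% as higher. The mean was lower in hKO for 12 of 12 single genes, against 97.1% of all genes, and the 2 genotypes did not overlap for 10, against 64.6% of all genes. At an unadjusted p under 0.05 the counts were 11 of 12 single and 2 of 19 clustered genes, against 75.0% of all genes. Among clustered genes 1 of 19 passed as lower, 1 did not overlap, and the mean was lower for 12 and higher for 7. Over all genes the median difference was -0.907 percentage points, so these are absolute differences; with each library's median subtracted, 9 single genes were lower and 3 higher (3 passed as lower and 1, Pcdh1, as higher), and relative to the library mean 5 were lower, 7 were higher and none passed. The same scalings turned the direction of many clustered genes. With library medians subtracted 17 of 19 were higher and 2 lower (15 passed as higher and none as lower). A gene at low mCA in both genotypes becomes higher by construction there, because a larger median is taken from WT. Relative to the library mean 13 were higher, 6 were lower and none passed. The shares of all genes that passed under these scalings are not given here, so the scaled counts have no background beside them.

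**Figure D1:**
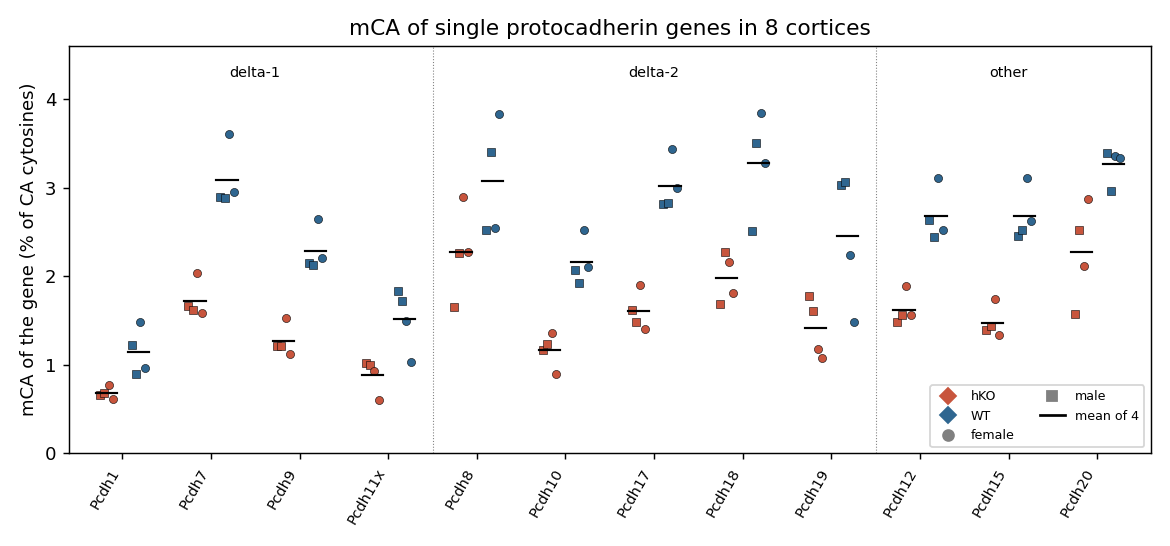
Each point is the mCA of a single protocadherin gene (percent of CA cytosines) in 1 cortex, hKO left of WT, circles for females and squares for males, with bars at the mean of 4 animals. On this absolute scale the genotypes overlap for Pcdh8 and Pcdh19 and for none of the other 10 genes; scaled to the library mean, 7 of the 12 genes are higher in hKO.

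The delta-1 genes Pcdh1, Pcdh7, Pcdh9 and Pcdh11x encode adhesion proteins whose cytoplasmic tail can bind protein phosphatase 1. All 4 had less mCA in hKO on the absolute scale, with a median of 57.2% of the WT level, although Pcdh1 and Pcdh11x were higher in hKO after either scaling. Pcdh7, known in frog embryos as NF-protocadherin, had 1.66, 1.62, 2.03 and 1.59% in hKO cortices, against 2.90, 2.88, 3.61 and 2.95% in WT cortices. The lowest WT animal lay well above the highest hKO animal, and in each genotype animal 651-2 or 651-3 was the highest. The difference was -1.36 points (SE 0.222, limma adjusted p = 0.000803), and hKO mice had 55.9% of the WT level. Pcdh9, a gene expressed widely in cortex, had 1.21, 1.22, 1.53 and 1.12% in hKO cortices, against 2.15, 2.12, 2.64 and 2.21% in WT cortices. Its animals ranked much as those of Pcdh7, and the difference of -1.01 points (SE 0.177) passed with a limma adjusted p of 0.000997.

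Pcdh1 had the lowest mCA of the single genes. It stood at 0.655, 0.678, 0.775 and 0.617% in hKO cortices, against 1.22, 0.899, 1.48 and 0.963% in WT cortices. The groups did not overlap, but the WT animals were spread more widely (SD 0.267, n = 4) than the hKO animals (SD 0.0676, n = 4). The difference of -0.461 points (SE 0.149) had a limma adjusted p of 0.0198, which became 0.0505 without hKO animal 694 and 0.0517 without hKO animal 047-1. Pcdh11x, which is X-linked, had 1.02, 0.999, 0.931 and 0.604% in hKO cortices, against 1.84, 1.72, 1.50 and 1.03% in WT cortices. In each genotype both females lay below both males, and the lowest animals were the females 047-1 and 047-2. Its difference was -0.632 points (SE 0.196, limma adjusted p = 0.0163, and 0.0515 without hKO animal 047-1).

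Of the delta-2 genes Pcdh8, Pcdh10, Pcdh17, Pcdh18 and Pcdh19, whose proteins act in cell sorting, axon growth and synapses, 4 of 5 passed as lower in hKO on the absolute scale, and relative to the library mean Pcdh8, Pcdh18 and Pcdh19 were higher (Pcdh8 also with library medians subtracted). Pcdh17, which takes part in forming synapses between cortex and basal ganglia, kept the smallest share of its WT level among single genes. Its mCA was 1.62, 1.48, 1.90 and 1.41% in hKO cortices, against 2.82, 2.83, 3.43 and 2.99% in WT cortices. Every WT cortex lay above every hKO cortex, and with 53.1% of the WT level the gene stood next to Pcdh10 at 54%. The difference was -1.42 points (SE 0.206, limma adjusted p = 0.000692), and its promoter, shown above, holds the most CG sites of the 9 matched. Pcdh10, or OL-protocadherin, guides growth of striatal axons in mice. It had 1.16, 1.23, 1.36 and 0.901% in hKO cortices, against 2.07, 1.93, 2.52 and 2.11% in WT cortices. The groups were well apart, with a difference of -0.992 points (SE 0.179, limma adjusted p = 0.00114).

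Pcdh18, whose protein binds the adaptor Dab1 in mice, had 1.69, 2.28, 2.16 and 1.81% in hKO cortices, against 2.51, 3.51, 3.84 and 3.28% in WT cortices. WT male 695 lay close to the upper hKO animals without overlap. The difference was -1.30 points (SE 0.298, limma adjusted p = 0.00374). Pcdh8, the activity-regulated arcadlin of rat neurons, had 1.65, 2.26, 2.90 and 2.27% in hKO cortices, against 2.52, 3.40, 2.55 and 3.84% in WT cortices. Its groups overlapped, because hKO female 651-2 exceeded WT animals 695 and 651-3. The difference of -0.805 points (SE 0.367) did not pass, with a limma adjusted p of 0.0721; it was 0.0379 without hKO animal 651-2 and 0.0434 without WT animal 695. Pcdh8 kept 73.8% of its WT level, the highest share among single genes.

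The other 3 single genes, Pcdh12, Pcdh15 and Pcdh20, all passed as lower on the absolute scale, and relative to the library mean Pcdh12 and Pcdh20 were higher. Pcdh12 encodes an adhesion protein of blood vessel endothelium. It had 1.49, 1.56, 1.89 and 1.56% in hKO cortices, against 2.63, 2.45, 3.10 and 2.52% in WT cortices. All WT animals exceeded all hKO animals, by -1.05 points on average for hKO minus WT (SE 0.197, limma adjusted p = 0.00137). Pcdh15, which forms the tip links of hair cells in the inner ear, had 1.39, 1.43, 1.74 and 1.34% in hKO cortices, against 2.46, 2.53, 3.11 and 2.63% in WT cortices. That gap was -1.20 points (SE 0.196, limma adjusted p = 0.0008), and the within-genotype spread was small beside it. Pcdh20 had 1.57, 2.53, 2.12 and 2.87% in hKO cortices, against 3.39, 2.96, 3.36 and 3.34% in WT cortices. Its hKO animals were spread over more than their distance from WT, since 047-1 came within 0.1 points of WT animal 046-1 while 694 lay lowest. The difference was -0.992 points (SE 0.289, limma adjusted p = 0.0121), which left 69.6% of the WT level.

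Set side by side, the hKO share of the WT level ran from 53.1% in Pcdh17 to 73.8% in Pcdh8, with a median of 58% over the 12 single genes and 56.6% over all genes, whose middle 50% spanned 53.1 to 61.8%. The 2 genes above that span, Pcdh8 and Pcdh20, also had the largest hKO standard deviations of the single genes, 0.509 and 0.557 points. WT levels placed the single genes between the 25.4th percentile of all genes (Pcdh1) and the 79.3rd (Pcdh18). The median single gene had 1.54% in hKO and 2.68% in WT, and the median over all genes was 1.15% in hKO and 2.07% in WT. Within-genotype coefficients of variation had a median of 14.8% in single genes and 18.9% in all genes.

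**Figure D2:**
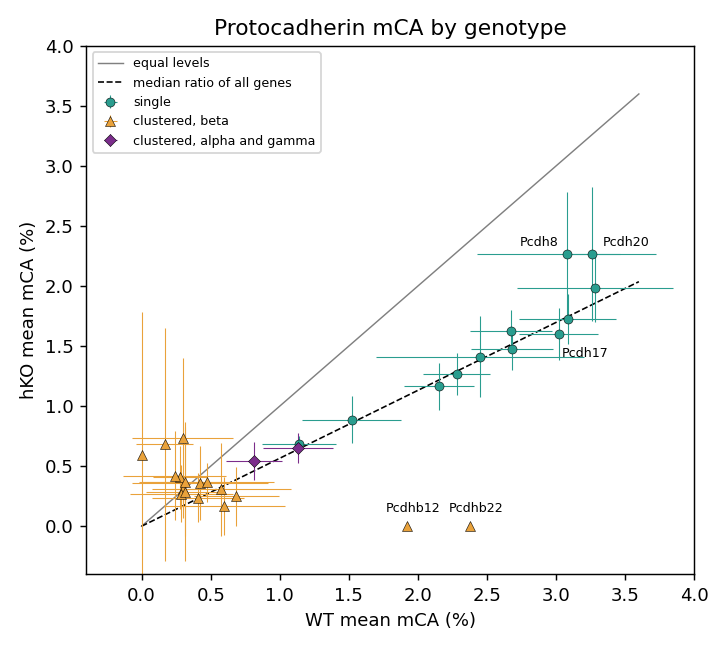
Mean mCA (percent) in 4 hKO cortices against that in 4 WT cortices for the 31 measured protocadherins, with SD bars; the WT SD of Pcdhb12 and Pcdhb22 (3.85 and 4.76 points) is not drawn. The dashed line is the median hKO share of the WT level over all genes, 56.6%, and single genes lie near it, with Pcdh8 and Pcdh20 above it, while beta genes other than Pcdhb12 and Pcdhb22 gather near the origin, on both sides of the line of equal levels.

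In clustered genes mCA was low in both genotypes. The median clustered gene had 0.362% in hKO and 0.411% in WT, and the median beta gene 0.306% in hKO and 0.312% in WT. In each library the clustered median was well under that of single genes: it was 13.2, 17.1, 32.2 and 12.7% of the single-gene median in hKO animals and 13.5, 8.28, 14.4 and 8.98% in WT animals. Replicates scattered far more than in single genes, with a median coefficient of variation of 107%. For the 18 clustered genes with a WT mean above 0, the median hKO share was 81.4%, and it ranged from 60.0 to 85.7% as single animals were left out. The mean of these shares in place of the median was 102.7%.

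The 2 clustered genes outside the beta array had the steadiest values. Pcdhga11, a gamma gene, had 0.670, 0.593, 0.817 and 0.521% in hKO cortices, against 1.03, 1.01, 1.51 and 0.983% in WT cortices. It was the only clustered gene whose groups did not overlap and that passed, with a difference of -0.482 points (SE 0.151, limma adjusted p = 0.0172), 57.5% of the WT level. Without hKO animal 047-1 the adjusted p was 0.0510, and after either scaling the gene was higher in hKO. Pcdha1, an alpha gene, had 0.527, 0.513, 0.753 and 0.370% in hKO cortices, against 0.754, 0.740, 1.11 and 0.654% in WT cortices. Its groups overlapped by hKO animal 651-2 alone, and the difference of -0.275 points (SE 0.139) had a limma adjusted p of 0.0987. WT levels of these genes stood at the 14.6th percentile of all genes for Pcdha1 and the 25.1st for Pcdhga11. Genes of the alpha and gamma arrays may overlap through the shared constant exons, and the extent of each deposited gene is not given in the sources used here.

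None of the 17 beta genes passed in either direction, where 72.1% of all genes passed as lower. In 1 the unadjusted limma p was under 0.05, against 75.0% of all genes. With library medians subtracted, 13 of the 17 passed as higher in hKO, and the share of all genes that did so is not given here. A gene at low mCA in both genotypes takes that direction by construction under this scaling. The gene with the unadjusted p under 0.05 was Pcdhb20, with 0.215, 0.196, 0 and 0.588% in hKO cortices, against 1.07, 0.680, 0.309 and 0.690% in WT cortices. Its difference of -0.437 points (SE 0.180) had a limma adjusted p of 0.0507, and the groups overlapped. Without hKO animal 047-1 the adjusted p was 0.0244, and without WT animal 651-3 it was 0.0176. With animals blocked by title number the limma adjusted p was 0.0289. Pcdhb19 and Pcdhb18, the beta genes without a 0, showed no separation. Pcdhb19 had 0.345, 0.175, 0.406 and 0.297% in hKO cortices, against 0.318, 0.285, 0.413 and 0.170% in WT cortices, a difference of 0.00920 points (SE 0.0978). Pcdhb18 had 0.412, 0.259, 0.777 and 0.175% in hKO cortices, against 0.0685, 0.222, 0.540 and 0.287% in WT cortices. In Pcdhb18 the hKO mean was the higher one, by 0.127 points (SE 0.155, limma adjusted p = 0.470).

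Several beta genes owed their mean to 1 library. Pcdhb22 was listed at 9.52% in WT animal 695 and at 0 in the other 7 libraries, and Pcdhb12 at 7.69% in WT animal 651-3 and at 0 in the others. Pcdhb9 was listed at 2.38% in hKO animal 651-2 only, and among hKO cortices Pcdhb7 was above 0 only there, at 1.16%. Pcdhb13 and Pcdhb17 had higher means in hKO (0.682 and 0.735%) than in WT (0.166 and 0.299%), with limma adjusted p-values of 0.268 and 0.230. For the remaining beta genes Pcdhb3, Pcdhb4, Pcdhb5, Pcdhb6, Pcdhb11, Pcdhb14, Pcdhb16 and Pcdhb21, means lay between 0.171 and 0.421% in hKO and between 0.239 and 0.599% in WT. Pcdhb11 had the widest relative gap of these, 0.171% in hKO and 0.599% in WT, with a limma adjusted p of 0.0987, or 0.0102 without WT animal 046-1.

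**Figure D3:**
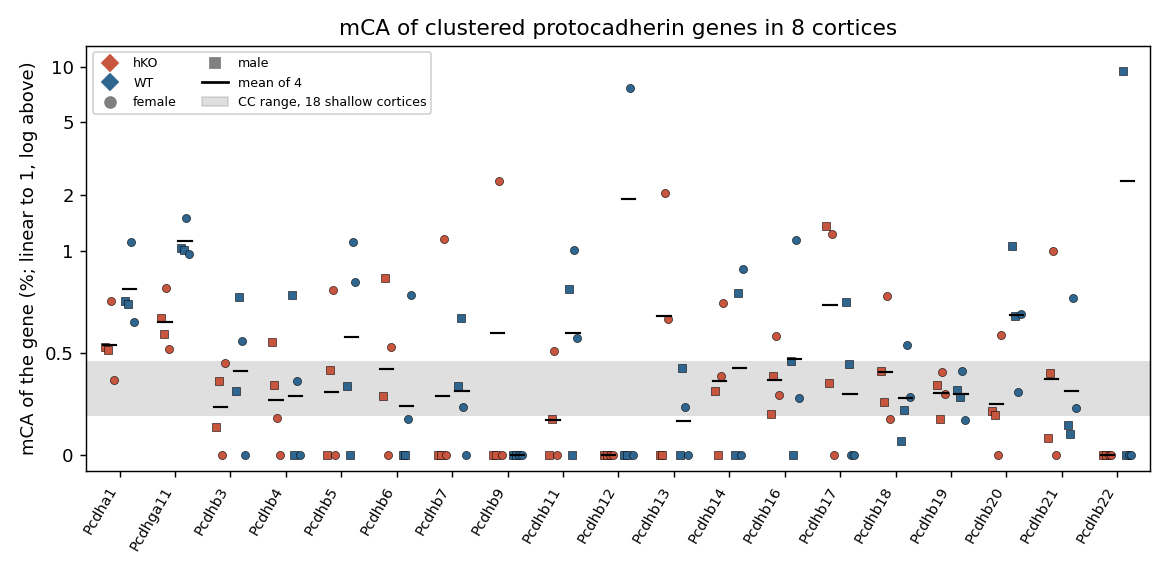
Each point is the mCA of a clustered gene (percent; linear up to 1 and logarithmic above) in 1 cortex, hKO left of WT, with bars at the mean of 4 animals. The grey band is the range of CC methylation, 0.194 to 0.460%, over 18 animals with shallow cortex libraries, averaged by animal. At or below its upper edge lie 14 of 17 beta means in hKO and 11 of 17 in WT.

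The low level of beta genes was set beside the methylation of CC cytosines, a context that carries little methylation and that records incomplete bisulfite conversion as well. CC was deposited per library in other, shallow libraries of 8-week cortex, and libraries of the same animal were averaged. Its median was 0.244% in 7 hKO animals and 0.376% in 11 WT animals, and its highest value for an animal was 0.460%. Among shallow libraries of the animals used here, the median was 0.347% in 3 hKO animals and 0.376% in 3 WT animals. Beta means at or below the highest CC value of 0.460% numbered 14 of 17 in hKO and 11 of 17 in WT. Over all genes the shares at or below it were 10.4% in hKO and 3.70% in WT. Whether the beta genes carry mCA above incomplete conversion was not tested, since no CC value per gene was used here. With the median CC of 0.348% subtracted, a step not taken for beta genes because many of their means lie at or below it, the single genes kept a median of 49.4% of the WT level (42 to 70.5%), Pcdha1 41.3% and Pcdhga11 38.6%. All genes whose means exceeded the highest CC value in both genotypes had a median of 47.6%.

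In mCG no protocadherin passed in either direction, and neither did any other gene: limma called 0.0% as lower and 0.0% as higher. Unadjusted p-values under 0.05 were found for 2 of 12 single genes and 0 of 17 clustered genes, against 10.4% of all genes. Means were lower in hKO for 11 of 12 single genes and 10 of 17 clustered genes, against 84.0% of all genes; with library medians subtracted these counts were 8 and 6. The 2 genotypes did not overlap for Pcdh7 and Pcdh19, lower in hKO in both, against 4.94% of all genes, and 0.057% of all genes had hKO above WT without overlap. The median single gene had 69.2% in hKO and 73.5% in WT, the median clustered gene 63.4% in hKO and 64.7% in WT, and the median over all genes was 77.1% in hKO and 79.4% in WT.

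Among single genes Pcdh8 stood lowest in mCG by a wide margin. It had 24.5, 28.5, 25.0 and 26.4% in hKO cortices, against 34.0, 28.4, 37.7 and 40.6% in WT cortices. Apart from WT male 046-1, which lay among the hKO animals, WT cortices were above them. The difference of -9.10 points (SE 2.87, unadjusted p = 0.00973) did not pass over all genes, with a limma adjusted p of 0.476. Pcdh19 had the next largest difference of the single genes, with 66.8, 63.0, 69.3 and 68.5% in hKO cortices, against 73.4, 71.4, 74.3 and 70.9% in WT cortices. There the groups were apart, by -5.57 points (SE 2.10, limma adjusted p = 0.476). Pcdh7 had 74.0, 72.1, 75.4 and 73.6% in hKO cortices, against 76.3, 75.6, 80.3 and 76.9% in WT cortices, with no overlap and a limma adjusted p of 0.478.

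Among the other single genes mean mCG ran from 53.8% in hKO and 57.1% in WT for Pcdh1 to 77.8% in hKO and 79.7% in WT for Pcdh15, and Pcdh12 was the single gene with the higher mean in hKO (75.6% against 74.5% in WT). Pcdh20, at 56.2% in hKO and 58.2% in WT, had the widest WT spread of these, from 47.3 to 67.9%. Pcdh10 stood at 58.3% in hKO and 62.4% in WT, Pcdh17 at 62.7% in hKO and 65.9% in WT and Pcdh18 at 71.6% in hKO and 75.2% in WT. The delta-1 genes Pcdh9 (74.1% in hKO, 77.3% in WT) and Pcdh11x (75.2% in hKO, 75.9% in WT) stood close to Pcdh7. Pcdha1 stood at 60.4% in hKO and 60.7% in WT and Pcdhga11 at 47% in hKO and 49% in WT. Beta genes scattered more, from 45.7 to 93.8% in hKO means and from 36.2 to 91.0% in WT means. Pcdhb9 had the widest difference, -34.1 points (SE 16.0, limma adjusted p = 0.476), and it included the value of 0 in hKO animal 047-1. Within-genotype coefficients of variation in mCG had a median of 3.68% in single genes, 12.4% in clustered genes and 3.67% in all genes.

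**Figure D4:**
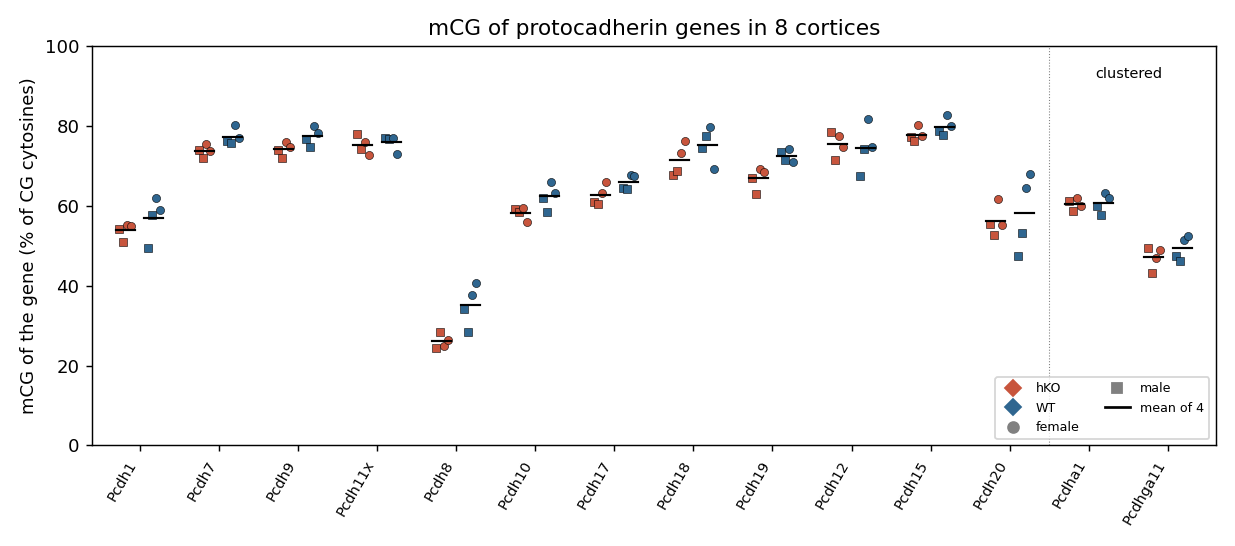
Each point is the mCG of a gene (percent of CG cytosines) in 1 cortex, hKO left of WT, with bars at the mean of 4 animals, for the 12 single genes and the clustered genes Pcdha1 and Pcdhga11. Pcdh8 lies between 24.5 and 40.6%, below all other genes plotted, and the genotypes overlap except for Pcdh7 and Pcdh19.

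Single genes with many CG sites for their length had less of them methylated. The density of CG sites, from the authors' columns of methylated cytosine per length divided by the methylated fraction, was 1.85 times that of the median gene in Pcdh8, 1.86 times in Pcdh1, 1.22 times in Pcdh12, 1.17 times in Pcdh18 and 0.940 times in Pcdh20. It was between 0.382 times (Pcdh11x) and 0.679 times (Pcdh17) in the other 7. Over the 12 single genes Spearman's rho between this density and WT mCG was -0.77; the genes share libraries, and the value is a description. It was 0.31 over 17 clustered genes and -0.15 over all genes. Between WT mCG and WT mCA rho was 0.02 over single genes, 0.29 over clustered genes and 0.03 over all genes, so a gene's rank in mCG did not follow its rank in mCA: Pcdh8, lowest among single genes in mCG, stood at the 74.5th percentile of all genes in WT mCA.

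Pcdh19, whose human counterpart is mutated in an epilepsy that affects mainly females, and Pcdh11x are the X-linked members, and here animals of the 2 sexes were compared. Pcdh19 had 1.78, 1.61, 1.18 and 1.08% in hKO cortices, against 3.03, 3.06, 2.24 and 1.48% in WT cortices, the first 2 of each genotype being males. The genotypes overlapped by WT female 047-2 alone, which lay below both hKO males, while WT female 651-3 lay above every hKO animal. Within each sex every hKO animal was below every WT animal. The difference between genotypes was -1.04 points (SE 0.356, limma adjusted p = 0.0246), and 0.00289 with sex as a covariate. Without hKO animal 651-2 or 047-1, or WT animal 695 or 046-1, the adjusted p without that covariate lay between 0.0591 and 0.0655. On the scale relative to the library mean Pcdh19 was higher in hKO, by 0.05 in log2, and it did not pass.

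Females had less mCA than males in both X-linked genes. For Pcdh19 the female mean was 1.49% and the male mean 2.37%, a difference of -0.878 points (SE 0.216, unadjusted limma p = 0.00341). For Pcdh11x the female mean was 1.02% and the male mean 1.39%, a difference of -0.378 points (SE 0.157, unadjusted limma p = 0.0424). Both females were below both males in each genotype for these 2 genes, but neither passed over all genes (limma adjusted p = 0.382 and 0.544). No gene of the table passed in this comparison (0.0% in either direction, and 8.97% with an unadjusted p under 0.05). The other 10 single genes had the higher mean in females. Library levels differed between the females, however. Over all genes median mCA was 1.32% in hKO female 651-2 and 1.01% in 047-1, against 1.11 and 1.10% in males 694 and 046-2. It was 2.43% in WT female 651-3 and 1.91% in 047-2, against 1.93 and 1.92% in males 695 and 046-1. Animals 651-2 and 651-3 thus stood highest in their genotype, and 047-1 and 047-2 lowest. Whether the 10 means stay higher without animals 651-2 and 651-3 was not tested. A split by chromosome, chosen after the data had been seen, placed the 2 genes among others of their chromosome: of 801 X-linked genes 80.3% had the lower mean in females, and 33.8% had both females below both males in each genotype, against 12.3% and 0.173% of 16754 autosomal genes. These shares rest on the same animals, so the differences in library level between females enter them as well.

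**Figure D5:**
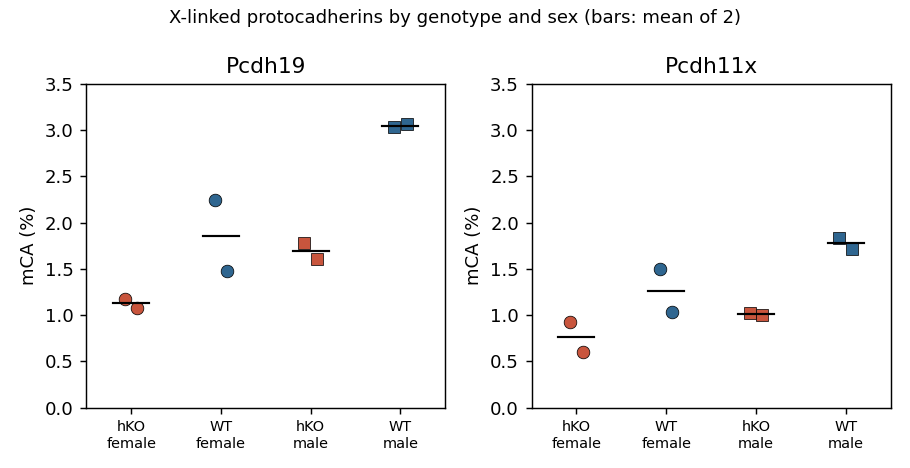
Each point is the mCA (percent) of Pcdh19 or Pcdh11x in 1 cortex, by genotype and sex, with bars at the mean of 2 animals. Within each sex the hKO animals lie below the WT animals in both genes on this absolute scale (relative to the library mean both genes are higher in hKO), and within each genotype the females lie below the males.

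Whether the genotype difference itself depends on sex was asked with an interaction term. No protocadherin passed, where 0.00939% of all genes did in mCA (3.41% with an unadjusted p under 0.05) and 0.0% in mCG (3.07% unadjusted). The counts of protocadherins with an unadjusted p under 0.05 were 0 of 12 single and 1 of 19 clustered genes in mCA, and 0 in mCG. For Pcdh19 the female genotype difference minus the male one was 0.619 points (SE 0.404, limma p = 0.167), since the hKO minus WT difference was -0.732 points in females and -1.35 points in males. In mCG females had the higher mean in 11 of 12 single genes. Most genes went that way, since the female mean was the lower one in 7.70% of 16606 autosomal genes and 39.8% of 789 X-linked genes. Of the 12 single genes 4 had an unadjusted limma p under 0.05 (35.0% of all genes). None passed, where 0.18% of all genes passed as higher and 0.019% as lower in females. The largest difference among single genes was in Pcdh20, with 62.3% in females and 52.2% in males (limma adjusted p = 0.102).

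Genes listed by their textbook role with protocadherins were read in the same fit, on the absolute scale. Their values under the 2 scalings are not given here. Of 15 measured regulators of the clusters, 12 passed as lower in mCA and none as higher, where 72.1% of all genes passed as lower. Stag1, a cohesin subunit, had 1.10% in hKO and 2.03% in WT; Smchd1, which silences clustered protocadherins in mouse, had 0.919% in hKO and 1.60% in WT. Dnmt3b, the methyltransferase that methylates their promoters in the embryo, had 2.16% in hKO and 4.18% in WT. Of 19 intracellular partners, 15 passed as lower and none as higher, among them the kinases Fyn (1.90% in hKO, 3.36% in WT), Ptk2b (1.16% in hKO, 2.11% in WT) and Ret (1.99% in hKO, 3.27% in WT). Of 29 other cadherin relatives, 28 passed as lower and none as higher. The planar polarity cadherin Celsr1 had 2.40% in hKO and 4.47% in WT, the giant cadherins Fat3 and Dchs1 had 1.90 and 1.62% in hKO and 3.43 and 3.44% in WT, and the classical cadherin Cdh4 had 2.74% in hKO and 4.73% in WT. The median hKO share of the WT level was 60.7% in regulators, 58% in partners and 57.3% in cadherin relatives, near the 56.6% of all genes, and no listed gene passed in mCG.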

How the data were processed

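Whole-genome bisulfite libraries of 4 hKO and 4 WT cortices were used. The authors deposited, for each gene and library, the fraction of CA and of CG cytosines called methylated, with further columns of methylated cytosine per length; per the submitters' processing notes BS-Seeker2, bedtools and mm9 were used, with no versions given. Gene boundaries, coverage minima and any correction for incomplete conversion are not given in the sources used here. Fractions were multiplied by 100. Groups and sex came from the labels.

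All genes measured in all 8 libraries (21302 in mCA, 21060 in mCG) were fitted with limma 3.58.1 in R 4.3.3 (eBayes with a trend), with no covariate for genotype and with genotype as covariate for sex; p-values were adjusted by Benjamini-Hochberg over all of them. No count model was used, since no counts were given. Summaries used Python 3.11.15, numpy 2.4.6 and pandas 2.3.3. The fit was tested on simulated data. Every protocadherin measured in all 8 libraries is named; of each list, up to 3 passing genes with the lowest adjusted p and the gene with the highest level. The members and lists were chosen with earlier results of these data known. RefSeq tables of GRCm38.p6 gave chromosomes, gene order and promoters; 9 of 12 single genes had a promoter used here, and Pcdh1, Pcdh11x and Pcdh12 are named only. Alternatives were the logit scale, 2 scalings between libraries, other rules for missing values and zeros, sex as covariate, each sex alone, a replicate block, no variance trend, and each animal left out. Nothing in the labels beyond the littermate statement says how animals were matched.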

Additional observations from a re-analysis of the deposited data

Results flagged for a closer look

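Among the 120 sets of 4 animals examined (each measured protocadherin in each genotype and context), 11 had 1 animal far from the other 3 by Dixon's criterion for 4 values at the 95% level. Chance gives about 1 in 20 sets. Of these, 5 concerned single genes and 6 clustered genes.

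Animals 651-2 and 651-3, which had the highest median mCA over all genes in their genotype, accounted for 7 of the 11. In Pcdh7, hKO animal 651-2 had 2.03% (others 1.59 to 1.66%) and WT animal 651-3 had 3.61% (others 2.88 to 2.95%). WT animal 651-3 had 2.64% in Pcdh9 (others 2.12 to 2.21%) and 1.51% in Pcdhga11 (others 0.983 to 1.03%). It also had 7.69% in Pcdhb12, with 0 in the others. In hKO animal 651-2 Pcdhb7 was 1.16% and Pcdhb9 was 2.38%, each with 0 in the other hKO animals.

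The remaining 4 involved other animals. Pcdh20 mCA was 2.96% in WT animal 046-1 and 3.34 to 3.39% in the other WT animals. Pcdhb22 mCA was 9.52% in WT animal 695 and 0 in the others. Pcdh11x mCG was 73.0% in WT animal 047-2 and 76.8 to 77.0% in the others. Pcdhb9 mCG was 0 in hKO animal 047-1 and 60.0 to 66.7% in the other hKO animals.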

How the results depend on the processing

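Scaling between libraries changed the mCA calls most. With library medians subtracted, the count of single genes passing as lower was 3 in place of 11 and as higher 1 in place of 0, and clustered genes passing as lower numbered 0 in place of 1 and as higher 15 in place of 0. The 13 differences that changed sign were then 0.450 points in Pcdh1, 0.279 in Pcdh11x, 0.106 in Pcdh8, 0.848 in Pcdhb14, 0.474 in Pcdhb20, 0.636 in Pcdha1, 0.483 in Pcdhb11, 0.805 in Pcdhb16, 0.738 in Pcdhb3, 0.894 in Pcdhb4, 0.640 in Pcdhb5, 0.888 in Pcdhb7 and 0.429 in Pcdhga11. A gene at low mCA in both genotypes becomes higher in hKO by construction when a larger median is taken from WT. The share of all genes that passed under either scaling is not given here. Relative to the library mean, 0 single and 0 clustered genes passed as lower, and 13 log2 differences changed sign, to 0.365 in Pcdh8, 0.189 in Pcdha1, 0.0421 in Pcdhb3, 0.720 in Pcdhb4, 0.679 in Pcdhb14, 0.800 in Pcdhb16, 0.0883 in Pcdh1, 0.0437 in Pcdh11x, 0.10 in Pcdh12, 0.10 in Pcdh18, 0.0458 in Pcdh19, 0.26 in Pcdh20 and 0.0221 in Pcdhga11. Females alone gave 4 single and 0 clustered genes as lower and 1 clustered gene (Pcdhb13) as higher. Males alone gave 8 single and 4 clustered genes as lower. These fits use 2 animals against 2. With the replicate block, 3 clustered genes passed as lower (Pcdhga11, Pcdha1 with an adjusted p of 0.0140 and Pcdhb20 with 0.0289) and the single-gene count stayed at 11. Animals that share a title number had deviations with low positive correlations, 0.0370 to 0.114 in mCA and 0.0389 to 0.120 in mCG. In mCA 5 of 8 animals and in mCG 6 of 8 correlated best with the animal of their own number. Whether the number marks a pair was not tested, and the main fit holds no block. Leaving out 1 animal at a time gave 8 to 11 single and 1 to 2 clustered genes as lower, none as higher, and median hKO shares of 55.1 to 61.5% in single and 60.0 to 85.7% in clustered genes. Subtracting the median CC moved the single-gene share to 49.4%; no share over all clustered genes was formed, since many beta means lie at or below it, and of clustered genes only Pcdha1 and Pcdhga11 have a subtracted value. The mean over members in place of the median gave a clustered share of 102.7%. The logit scale, the other rules for missing values and zeros, sex as covariate and no variance trend left all mCA counts unchanged in number. With zeros as missing, however, only 8 clustered genes could be tested in mCA in place of 19. In mCG and in the sex comparisons the count was 0 in every setting run. A replicate block was not run for sex, since both animals of a pair have the same sex. For lists the logit scale gave 11, 15 and 27 genes as lower. Coverage per gene is unknown, so the depth behind the zeros of the beta genes cannot be given.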

Other observations

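The clustered genes were also set beside the genes that flank them, in RefSeq order, a comparison added after the data had been seen. Of the 10 measured genes on the side of the alpha array 1 passed as lower in mCA, with a median of 0.484% in hKO and 0.658% in WT. Of the 10 measured genes on the side of the gamma array 8 passed as lower, against 72.1% of all genes, with a median of 0.915% in hKO and 1.66% in WT, and they include the single genes Pcdh1 and Pcdh12. The highest of these was Arap3, with 1.82% in hKO and 3.17% in WT. Taf7, a subunit of the general transcription factor TFIID that lies between the beta and gamma arrays, had 0.191% in hKO and 0.784% in WT, with a limma adjusted p of 0.0813. The lowest flanking gene in WT, Sra1, had 0.177% in hKO and 0.401% in WT, near the median clustered gene in WT (0.411%), and the next lowest, Ik, had 0.393% in hKO and 0.573% in WT.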
